A study of Mus musculus with 8 samples.

Results

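Genes of the DNA methylation machinery, 6 in number, were examined for the methylation of their own CpGs: Dnmt1, Dnmt3a, Dnmt3b, Dnmt3l, Tet1 and Tet2. Their CpGs were taken by position from fixed windows of the mouse genome build mm9, and 472 of the 622768 CpGs covered by at least 10 reads in all 8 libraries lay in these windows. From the first to the last, they spanned chr9:20707236-20763339 for Dnmt1 with 74 CpGs, chr12:3806533-3918051 for Dnmt3a with 200, chr2:153473749-153512358 for Dnmt3b with 63, chr10:77520036-77520075 for Dnmt3l with 4, chr10:62266675-62374594 for Tet1 with 51, and chr3:133129921-133207975 for Tet2 with 80. Counting CpGs listed in at least 1 library, the windows held 92, 263, 91, 13, 91 and 88 in the same order. Those missing from a library were used only to place transcription starts and in the alternatives. CpGs entered a window by position alone.

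The libraries came from mouse embryonic stem cells of strain 129/SvP, which were plated sparsely in serum (FBS) with LIF, the cytokine that sustains self-renewal. Cultures were left untreated, or received vitamin C at 500 µM, L-proline at 1 mM, or both, and genomic DNA was taken on day 2 and on day 5. There was 1 library for each treatment and day, and the labels do not say which cultures they came from. Reduced representation bisulfite sequencing (RRBS) reads methylation at single cytosines in CpG-rich fragments, and does not tell 5-methylcytosine from 5-hydroxymethylcytosine.

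DNA methyltransferases write cytosine methylation: Dnmt1 copies it onto the new strand after replication, Dnmt3a and Dnmt3b place it on unmethylated CpGs, and Dnmt3l, which has no catalytic activity of its own, stimulates both of these. Tet1 and Tet2 are dioxygenases that oxidise 5-methylcytosine, a step towards its removal. Vitamin C is known as a cofactor that raises the activity of Tet enzymes, and L-proline as an amino acid that shifts mouse embryonic stem cells towards a mesenchymal-like, more primed state.

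Median coverage over the common CpGs was 27 to 56 reads per library, and 0.195% to 0.513% of cytosines in the unmethylated lambda control were read as methylated. Mean methylation over all common CpGs was 19.0% to 24.0% in the 4 libraries without vitamin C and 16.1% to 18.3% in the 4 with it, so every difference in the gene windows was read against the whole genome. The highest of these means, 24.0%, was that of L-proline on day 5. Intervals and tests on reads of single libraries cover counting error only, since each treatment and day had 1 library. The labels mention no tags that would mark reads as separate molecules, so even the counting error may be understated. Where reads are pooled over several CpGs, a read is counted once at each CpG it covers, so the Wilson intervals of pooled reads can be too narrow.

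No gene annotation of mm9 was used, so exons and introns are not named. Transcription starts were placed by matching the CpG spacing of RefSeq promoter sequences (build GRCm38.p6, 250 bases before to 50 after the start) to the listed CpGs of the gene's chromosome. Dnmt1 was placed at a start on the minus strand at position 20757067 (23 of 33 CpGs matched), with 2 other RefSeq starts of this gene not placed. Dnmt3a, on the plus strand, had starts at 3806980 and 3807160 (37 of 46 and 24 of 47 CpGs) and an internal start at 3891744 (8 of 18). Dnmt3b had 1 start at 153475185 on the plus strand (13 of 30), and Tet2 had 1 at 133207354 on the minus strand (54 of 57). The 3 RefSeq promoters of Dnmt3l, with 6, 4 and 3 CpGs, and that of Tet1, with 17, could not be placed. For Tet1 the largest run of neighbouring CpGs, 36 CpGs in chr10:62348652-62350045, is called the CpG-dense run. It was defined after the values had been seen, and whether it spans the Tet1 start is not known.

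The 250 bases before 4 placed starts are printed 5′ to 3′ on the gene's strand, from RefSeq. These stretches differ in CpG number and in how many of their CpGs were covered. They hold only part of the CpGs behind the promoter values below, such as 4 of the 55 of Dnmt3b. Capitals mark the CpGs covered in all 8 libraries, and all other bases are in lower case.
Tet2, chr3:133207355-133207604, minus strand: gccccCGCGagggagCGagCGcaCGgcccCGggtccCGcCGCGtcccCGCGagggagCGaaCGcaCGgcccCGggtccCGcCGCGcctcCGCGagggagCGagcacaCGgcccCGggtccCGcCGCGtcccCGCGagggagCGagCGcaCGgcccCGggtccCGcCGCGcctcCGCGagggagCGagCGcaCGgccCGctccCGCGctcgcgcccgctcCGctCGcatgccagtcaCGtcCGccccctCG
Dnmt3a first start, chr12:3806730-3806979, plus strand: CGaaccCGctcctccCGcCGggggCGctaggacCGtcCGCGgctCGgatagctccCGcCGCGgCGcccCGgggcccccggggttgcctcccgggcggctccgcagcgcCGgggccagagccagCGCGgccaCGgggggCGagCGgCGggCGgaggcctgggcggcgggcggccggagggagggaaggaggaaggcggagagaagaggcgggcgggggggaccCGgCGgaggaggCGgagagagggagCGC
Dnmt3b, chr2:153474935-153475184, plus strand: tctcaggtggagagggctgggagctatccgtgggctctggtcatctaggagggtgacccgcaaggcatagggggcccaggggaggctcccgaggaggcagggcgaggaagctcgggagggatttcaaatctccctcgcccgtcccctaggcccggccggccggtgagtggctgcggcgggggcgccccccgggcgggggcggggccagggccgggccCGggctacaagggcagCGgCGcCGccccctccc
Dnmt3a internal start, chr12:3891494-3891743, plus strand: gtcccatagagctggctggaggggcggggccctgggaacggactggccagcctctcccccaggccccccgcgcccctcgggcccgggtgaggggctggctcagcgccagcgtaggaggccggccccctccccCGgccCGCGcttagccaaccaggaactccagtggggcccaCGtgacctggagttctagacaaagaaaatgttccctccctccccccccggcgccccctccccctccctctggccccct

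The Tet2 stretch holds 51 CpGs, of which 48 were covered in every library, and the first Dnmt3a stretch holds 38, of which 26 were covered. Coverage reached only 4 of 21 CpGs before the Dnmt3b start and 4 of 15 before the internal Dnmt3a start. Among 32851 RefSeq mouse promoters of 300 bases, whose median is 7 CpGs, only 0.152% hold as many CpGs as Tet2 (57) and 1.65% as many as the first Dnmt3a promoter (46). The corresponding share was 8.56% for Dnmt1, 11.7% for Dnmt3b, 29.7% for the internal Dnmt3a start, 31.4% for Tet1 and 56.4% for the Dnmt3l promoter with 6 CpGs. In the Tet2 stretch a run of 43 bases occurs again 84 bases away, whereas the longest such repeat was 12 bases or less in the other 3 stretches. The motif CCGG, which reads the same on both strands and is the usual cut site for RRBS, occurs 7 times in the first Dnmt3a stretch, 6 times in that of Dnmt3b, and 4 times each in those of Tet2 and of the internal Dnmt3a start. It occurs in none of the 3 Dnmt3l promoters, and 52.8% of all promoters of the same 300 bases hold it.

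The placed promoters of Dnmt1, Dnmt3a, Dnmt3b and Tet2 and the CpG-dense run of Tet1 were almost free of methylation in every library, with or without vitamin C or L-proline. Over the 377 CpGs within 1000 bases of a placed start or in the Tet1 CpG-dense run, mean methylation was 0.532% and 0.523% in untreated cells on days 2 and 5, 0.427% and 0.554% with L-proline, 0.506% and 0.375% with vitamin C, and 0.487% and 0.424% with both. All 8 means were of the same order as the share of lambda cytosines read as methylated. Of the 3016 values, one for each CpG and library, 2517 were 0, 10 were 10% or higher, and the highest was 15.0%.

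Dnmt1, the maintenance methyltransferase, had 39 promoter CpGs with means of 0.463% and 1.02% in untreated cells on days 2 and 5, 0.375% and 0.323% with L-proline, 0.843% and 0.401% with vitamin C, and 0.307% and 0.370% with both. The untreated day 5 library had the highest mean over CpGs, but in pooled reads it had 11 of 1463 methylated (0.752%, Wilson 95% interval 0.420 to 1.34%), below vitamin C on day 2 with 15 of 1780 (0.843%, 0.511 to 1.39%), and these intervals overlap. Dnmt3a, a de novo methyltransferase, had 176 CpGs around its first 2 starts, whose library means ran from 0.377% to 0.607%, and 4 CpGs near its internal start, whose means ran from 0.595% to 2.53%. The 55 promoter CpGs of Dnmt3b, the other de novo enzyme, had library means of 0.330% to 0.594%. For the dioxygenase Tet1 the CpG-dense run had 0.212% to 0.646%, and for Tet2 the 67 promoter CpGs had 0.161% to 0.584%.

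The matched difference for vitamin C is the mean over 4 pairs of libraries that share L-proline treatment and day, with its SD over the pairs. It was -0.06 ± 0.415 points at the Dnmt1 promoter (n = 4 pairs), -0.10 ± 0.140 at the Dnmt3a promoters, 0.02 ± 0.0898 at Dnmt3b, -0.03 ± 0.224 at the Tet1 CpG-dense run and -0.04 ± 0.108 at Tet2. Each of these was smaller than its SD. L-proline differed from no L-proline by -0.34 ± 0.329 points at Dnmt1 and -0.15 ± 0.0747 at Dnmt3b, lower in 4 of 4 pairs at both, and by 0.03 ± 0.110, 0.13 ± 0.227 and 0.12 ± 0.230 points at Dnmt3a, the Tet1 run and Tet2. With 4 pairs, an exact sign-flip permutation test (two-sided) has 16 sign assignments and its smallest p is 2 of 16. L-proline reached that smallest p, and no lower one is possible, at the Dnmt1 and Dnmt3b promoters. Both rest on 7 to 17 methylated reads per library, at levels of the same order as the lambda share. In pooled reads Dnmt1 was not lower in every pair. On day 2, L-proline had 10 of 1981 reads methylated (0.505%) and untreated had 11 of 2206 (0.499%).

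**Figure D1:**
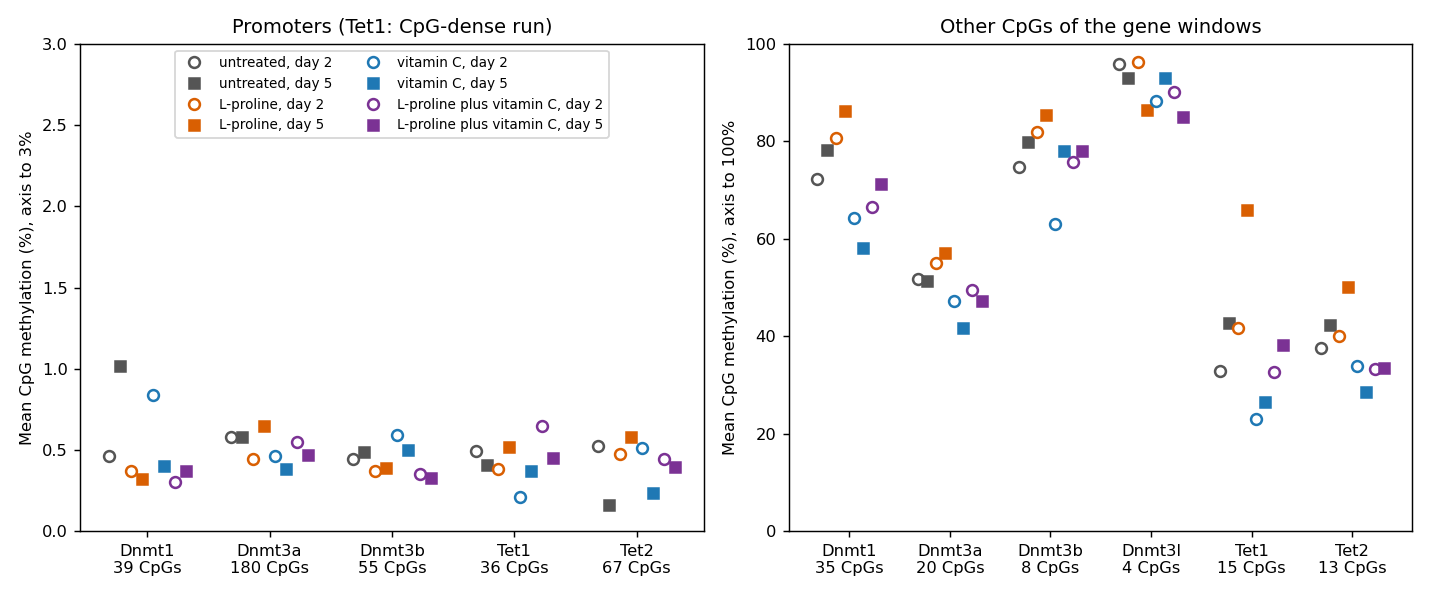
Mean CpG methylation (%) of each gene in each of the 8 libraries, 1 point per library (open circles day 2, filled squares day 5), with promoters on an axis to 3% at left and the remaining window CpGs on an axis to 100% at right. The left panel uses the CpG-dense run for Tet1, and no promoter mean is above 1.02%. In the right panel the vitamin C libraries all lie below the others for Dnmt1, Dnmt3a and Tet2.

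Outside the placed promoters and the Tet1 dense run, most CpGs of these windows were methylated, and vitamin C libraries were lower. Some of these CpGs may still lie near a start, because the starts of Dnmt3l and Tet1 and 2 of Dnmt1 were not placed. The 95 remaining CpGs, pooled over the 6 windows, averaged 58.2% and 62.8% in untreated cells on days 2 and 5, 64.4% and 71.9% with L-proline, 50.9% and 48.8% with vitamin C, and 54.8% and 57.0% with both. Every library with vitamin C was below every library without it. The matched difference was -11.4 ± 3.64 points for vitamin C (lower in 4 of 4 pairs) and 6.82 ± 2.28 points for L-proline (higher in 4 of 4), each at the smallest p of the exact sign-flip test, 2 of 16.

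In the Dnmt1 window 35 CpGs lay outside the placed promoter. They averaged 72.2% and 78.2% in untreated cells on days 2 and 5, 80.8% and 86.3% with L-proline, 64.3% and 58.2% with vitamin C, and 66.5% and 71.3% with both. The groups with and without vitamin C did not overlap, and the matched difference was -14.3 ± 4.96 points (n = 4 pairs, lower in 4 of 4). With L-proline the level was higher in 4 of 4 pairs, by 7.95 ± 4.49 points.

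The 20 such CpGs of Dnmt3a averaged 51.8% and 51.5% in untreated cells on the 2 days, 55.2% and 57.1% with L-proline, 47.2% and 41.7% with vitamin C, and 49.4% and 47.2% with both. Here too the groups did not overlap, with a matched vitamin C difference of -7.47 ± 2.72 points and an L-proline difference of 4.18 ± 1.65 points, each in 4 of 4 pairs. Pooling reads over these CpGs gave -11.5 points for vitamin C and 7.48 for L-proline, and taking the CpGs listed in each library gave 10.1 for L-proline. The 20 CpGs mix 11 highly methylated positions with 4 low ones at the downstream edge of the first promoter, beyond 1000 bases from its starts, and 5 low ones in a run 64.8 kb after the first start.

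The 8 remaining CpGs of Dnmt3b averaged 74.7% and 79.9% in untreated cells on the 2 days, 81.9% and 85.4% with L-proline, 63.0% and 77.95% with vitamin C, and 75.7% and 78.1% with both. The vitamin C difference of -6.76 ± 4.02 points and the L-proline difference of 6.39 ± 5.18 points each had 1 direction in 4 of 4 pairs, but the libraries with and without vitamin C overlapped. At a minimum of 30 reads, which leaves fewer CpGs, these differences were -2.16 and 1.32 points. For Dnmt3l, the catalytically inactive cofactor, 4 CpGs within 40 bases (chr10:77520036-77520075) were covered in all libraries, at 95.8% and 92.9% in untreated cells on the 2 days, 96.2% and 86.5% with L-proline, 88.2% and 93.1% with vitamin C, and 90.1% and 85.0% with both. Neither vitamin C (-3.78 ± 3.67 points, lower in 3 of 4 pairs) nor L-proline (-3.06 ± 4.92 points, lower in 2 of 4) moved them in 1 direction. Their size depended on which CpGs and pairs were used. For vitamin C it was -12.0 points over the CpGs listed in each library, -7.32 over those listed in both libraries of a pair and -2.51 without the untreated day 2 pair. For L-proline it was -0.48 and 0.62 points over the same CpG sets, and -4.70 to -1.38 when each pair was left out, with the lowest value without the vitamin C day 2 pair and the highest without the vitamin C day 5 pair.

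In the Tet1 window the 15 CpGs outside the dense run averaged 32.9% and 42.8% in untreated cells on days 2 and 5, 41.8% and 65.9% with L-proline, 23.0% and 26.5% with vitamin C, and 32.8% and 38.2% with both. The L-proline day 5 library was the highest by a wide margin, and the group with vitamin C overlapped the group without it only through the pair of 38.2% and 32.9%. Matched differences were -15.7 ± 8.66 points for vitamin C and 13.3 ± 6.63 points for L-proline, each in 4 of 4 pairs. At a minimum of 30 reads, which leaves fewer CpGs, the vitamin C difference was -5.76 points. The 13 such CpGs of Tet2 averaged 37.6% and 42.4% in untreated cells on the 2 days, 40.1% and 50.1% with L-proline, 33.9% and 28.7% with vitamin C, and 33.4% and 33.4% with both. Vitamin C libraries of Tet2 were all below the others (-10.2 ± 5.98 points), while L-proline differed by 3.61 ± 3.44 points, higher in 3 of 4 pairs. The L-proline difference of Tet2 was 8.32 points over the CpGs listed in each library, 9.46 in pooled reads and 2.26 without the untreated day 5 pair.

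**Figure D2:**
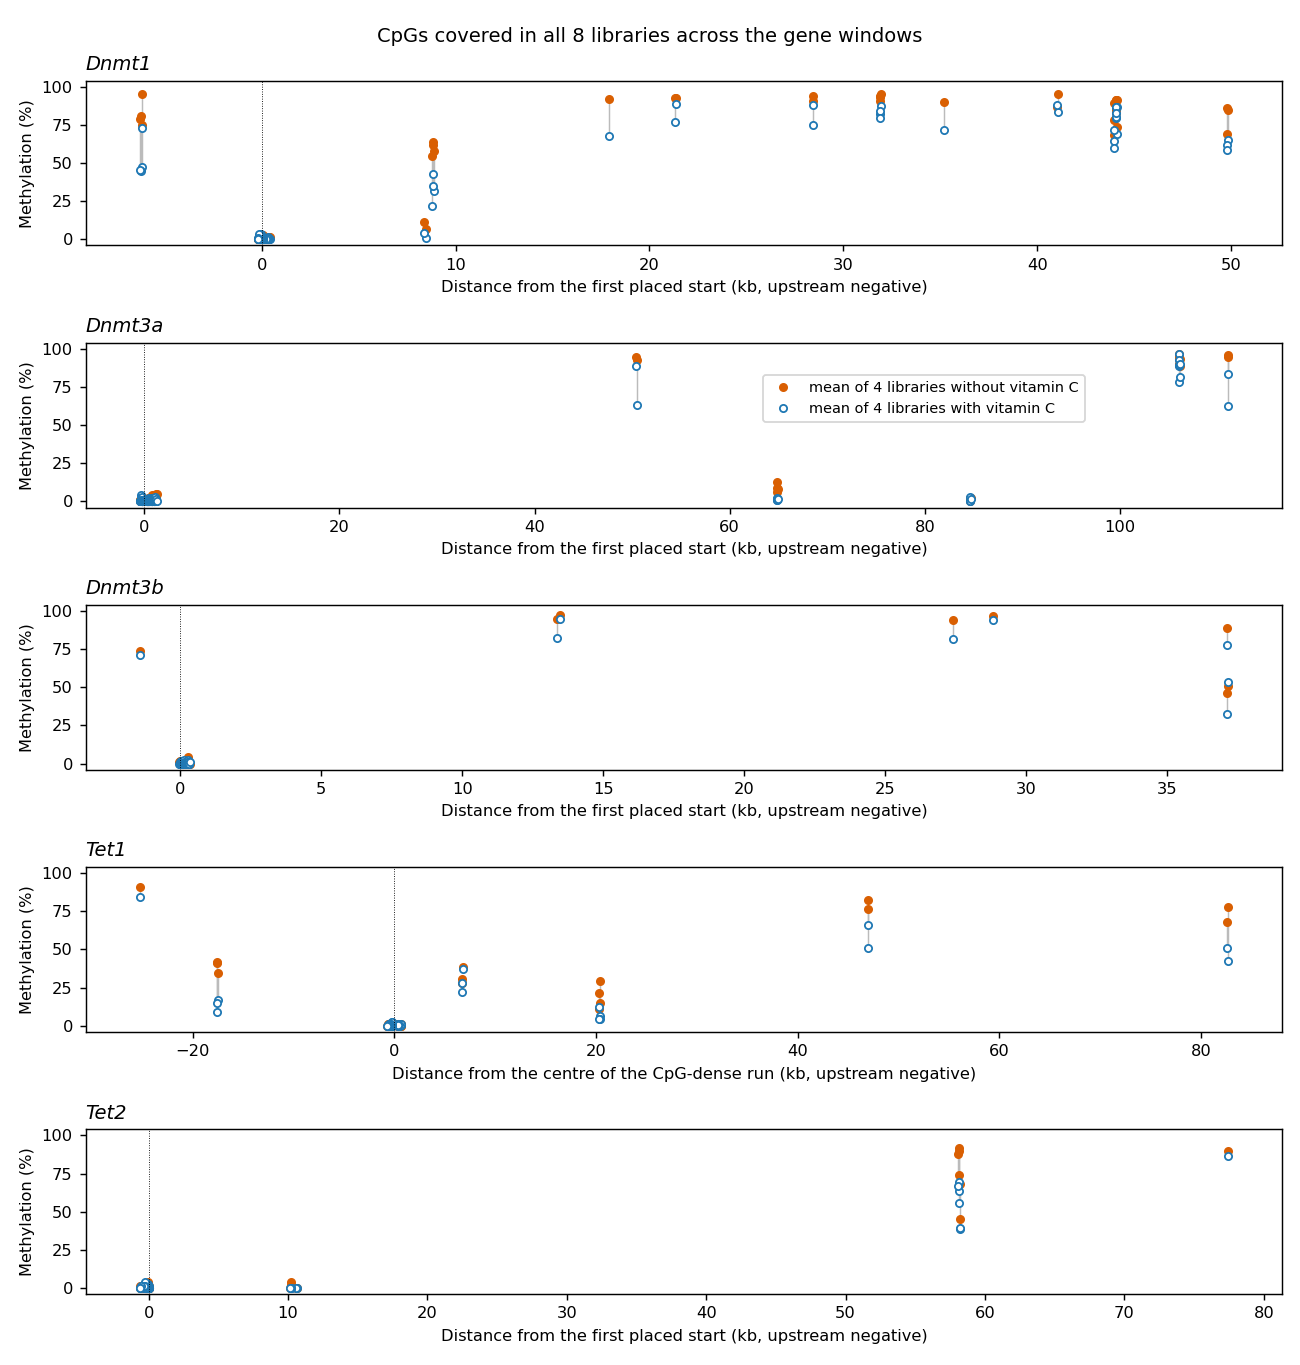
Methylation (%) of each covered CpG against its distance (kb) from the first placed start, or from the centre of the CpG-dense run for Tet1, with filled points for the mean of the 4 libraries without vitamin C and open points for the mean of the 4 with it. Points near distance 0 are close to 0% in every panel, and the Dnmt3a CpGs near its internal start and the Tet2 CpGs about 10 kb downstream also lie near 0%. Dnmt3l, with 4 CpGs and no placed start, is not drawn.

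Outside the placed promoters and the Tet1 dense run lie 29 runs of neighbouring CpGs, holding 91 CpGs. Runs were split wherever more than 1000 bases separate 2 CpGs. Mean methylation was lower with vitamin C in 29 of 29 runs, with a median difference of -10.01 points and a range from -29.9 to -1.16. It was lower in all 4 pairs in 17 runs, against 49.0% of all 1 kb tiles of the genome. In 9 runs the groups did not overlap, against 26.2% of tiles. With L-proline 27 of 29 runs had a higher mean (median 7.24 points), and 11 were higher in all 4 pairs, against 28.0% of tiles. The share of tiles with a lower or higher mean was not computed. Among tiles with a mean of 20% or more, the median difference was -11.2 points for vitamin C and 5.42 for L-proline. In the 26 runs of that class it was -10.4 and 7.32 points. Among the 26 runs with a mean of 20% or more, 15 were lower with vitamin C in all 4 pairs, beside 64.9% of the 1 kb tiles of the genome in that class, and 9 were lower without overlap, beside 33.4%. In the same class 10 runs were higher with L-proline in all 4 pairs, beside 37.5% of tiles. Runs average over CpGs and some hold only 1, whereas tiles pool reads over at least 3 CpGs, so these shares are not like for like. Differences were larger in runs of intermediate methylation: the vitamin C median was -20.4 points in the 11 runs with a mean of 20 to 80%, against -7.39 points in the 15 runs at 80% or more. That is a description of these runs, which differ in how far they can move, and no test was made of it.

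The run with the largest vitamin C difference lay upstream of Dnmt1 (chr9:20763223-20763339, 4 CpGs, 6.16 kb before the placed start). Its mean was 66.5% and 83.8% in untreated cells on days 2 and 5, 86.6% and 93.4% with L-proline, 43.3% and 41.9% with vitamin C, and 53.3% and 72.2% with both. Vitamin C libraries were lower in 4 of 4 pairs (-29.9 ± 9.64 points), although the library with both agents on day 5 exceeded untreated day 2. In counts pooled over the 4 CpGs, 21 of 50 were methylated with vitamin C on day 2 (42.0%, Wilson 95% interval 29.4 to 55.8%). With L-proline on day 5, 127 of 136 were (93.4%, 87.9 to 96.5%). A read that spans several of these CpGs enters the counts at each of them.

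Within Dnmt1, 8.39 kb after the placed start, lay a run of 6 CpGs (chr9:20748184-20748679) at 26.2% and 40.9% in untreated cells on the 2 days, 39.5% and 65.2% with L-proline, 18.9% and 16.4% with vitamin C, and 28.9% and 27.0% with both. L-proline on day 5 was the highest library, and the pair with and without vitamin C in L-proline on day 5 differed by -38.3 points. The run graded across its length: averaged over the 4 libraries without vitamin C, the 4 CpGs farthest into the gene were at 55.0% to 64.1%, and the 2 CpGs nearest the start at 6.94% and 11.5%. The third Dnmt1 run named, 49.8 kb after the start (chr9:20707236-20707315, 3 CpGs), stood at 67.5% to 86.4% in the libraries without vitamin C and at 56.0% to 67.3% in those with it.

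Tet1 had a run of 3 CpGs 17.5 kb upstream of the centre of its dense run (chr10:62366861-62366960). Levels there were 24.7% and 30.2% in untreated cells on the 2 days, 33.4% and 69.2% with L-proline, 7.71% and 9.88% with vitamin C, and 20.5% and 16.7% with both. The groups with and without vitamin C did not overlap, with a matched difference of -25.7 ± 18.1 points, and L-proline on day 5 stood far above the other 7 libraries. In pooled reads this library had 56 of 79 methylated (70.9%, Wilson 95% interval 60.1 to 79.7%), against 11 of 70 with both agents on the same day (15.7%, 9.01 to 26.0%).

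Another Tet1 run, 6.72 kb downstream of the dense run's centre (chr10:62342580-62342627, 3 CpGs), showed no vitamin C difference in 1 direction. It was at 17.5% and 29.3% in untreated cells on the 2 days, 22.4% and 60.4% with L-proline, 22.6% and 29.0% with vitamin C, and 27.5% and 37.4% with both. L-proline on day 5 was again the highest, and vitamin C was lower in only 2 of 4 pairs (-3.28 ± 13.4 points). Farther into the window, 82.6 kb downstream, 2 CpGs (chr10:62266675-62266749) ranged from 62.4% to 79.0% without vitamin C and from 36.3% to 52.8% with it, with no overlap and a matched difference of -26.1 ± 8.84 points. At 47.0 kb, 2 CpGs (chr10:62302356-62302386) gave the largest L-proline difference of any run, 24.6 ± 9.08 points, higher in 4 of 4 pairs.

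The Tet2 run 58.1 kb downstream of its start (chr3:133149153-133149260, 6 CpGs) averaged 65.4% and 76.9% in untreated cells on the 2 days, 71.5% and 90.3% with L-proline, 59.3% and 46.7% with vitamin C, and 57.4% and 59.1% with both. All 4 vitamin C libraries were below all 4 others, with differences of -6.11 and -14.1 points in the pairs of day 2 and -30.2 and -31.1 points in those of day 5. Another 6 CpGs of Tet2, 10.1 kb after the start, were nearly unmethylated, at 0% in 6 of 8 libraries and at most 3.12%.

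Dnmt3a had a run of 5 CpGs 64.8 kb after its first start (chr12:3871776-3871918) that was low in all libraries: 3.97% and 1.43% in untreated cells on the 2 days, 9.65% and 15.3% with L-proline, 0% and 0.968% with vitamin C, and 2.57% and 1.98% with both. The 2 libraries with L-proline alone were the highest. For the library at 0%, 0 of 194 pooled reads were methylated, and the Wilson 95% interval reaches 1.94%. Near the end of the Dnmt3a window 7 CpGs (chr12:3912975-3913132) were at 91.7% to 93.2% without vitamin C and 85.4% to 90.1% with it. The 3 CpGs at the far end of the Dnmt3b window (chr2:153512309-153512358) averaged 56.6% to 66.5% without vitamin C and 47.7% to 60.7% with it, a difference of -7.26 ± 2.28 points with 4 of 4 pairs lower.

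**Figure D3:**
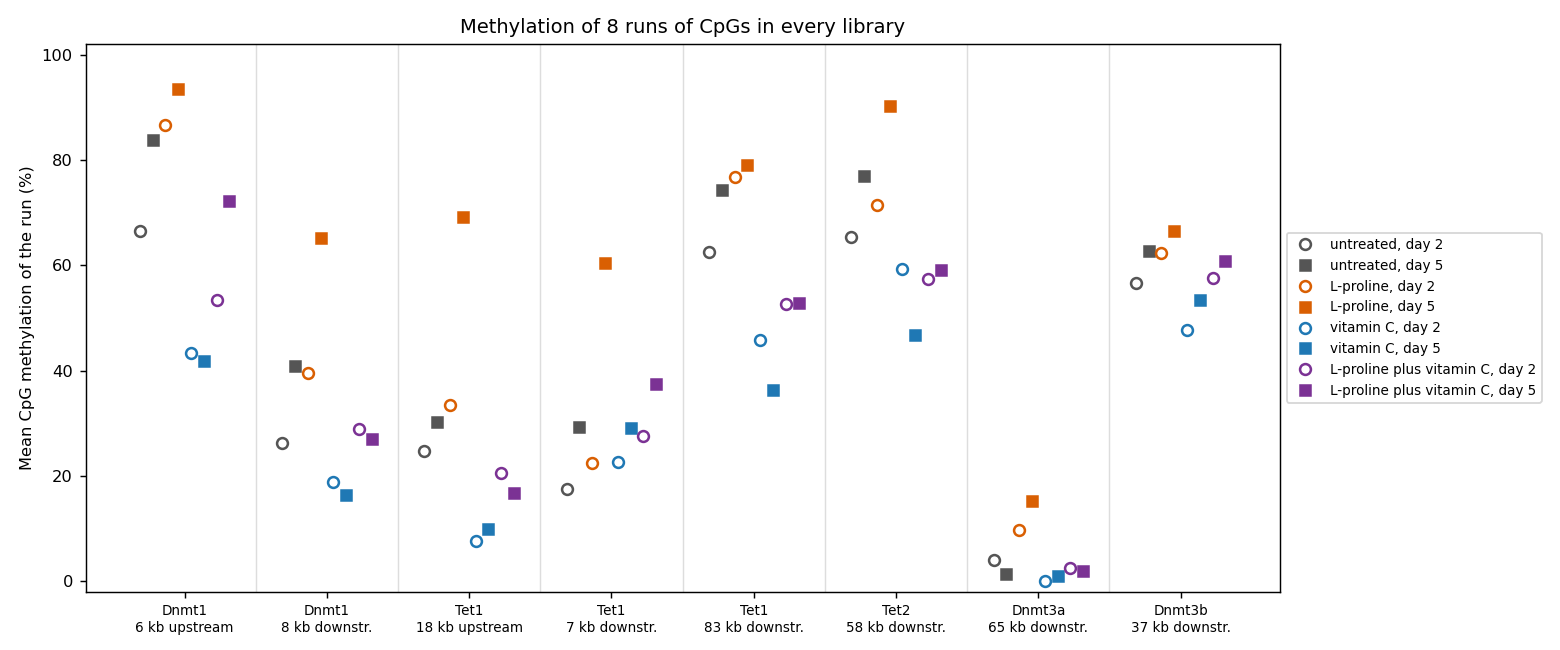
Mean CpG methylation (%) of 8 runs of neighbouring CpGs in each of the 8 libraries (open circles day 2, filled squares day 5), labelled by gene and by the distance (kb) from the first placed start or, for Tet1, from the centre of the CpG-dense run. L-proline on day 5, the filled orange square, is the highest point of all 8 runs. It reaches 69.2% in the Tet1 run upstream where the other 7 libraries lie at 33.4% or lower. The 8 runs were picked after their values were seen. In the Dnmt1 run 49.8 kb after the start, not drawn, untreated day 5 (86.4%) was above L-proline day 5 (84.2%).

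A test over the whole genome was made on tiles of 1 kb with at least 3 common CpGs, using limma on log2-transformed ratios (methylated over unmethylated reads) with the 2 agents and the day as additive terms. Calls needed 10 points or more of difference and an adjusted p under 0.05. With vitamin C, methylation was lower in 4 of the 26 tiles of the gene windows and higher in none, while 23.2% of all 50167 tiles were called lower. Among tiles with a mean of 20% or more the count was 4 of 12 in the windows against a background of 38.9%, and under 20% it was 0 of 14 against 6.66%. Those 14 tiles had a median level of 0.506%, and most stood too low to lose 10 points. Their count of 0 therefore shows nothing about vitamin C. The median difference of the 12 methylated window tiles was -8.77 points, beside -11.2 points over all tiles of that class. Vitamin C calls were thus no more frequent in these windows than in the genome.

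The called tiles cover the 3 Dnmt1 runs and the Tet1 upstream run named. From all reads of each tile, the Dnmt1 tile 6.16 kb upstream went from 82.4% without to 53.1% with vitamin C (-29.3 ± 6.94 points over 4 pairs, log2 ratio -2.17 ± 0.369 SE, limma adjusted p = 0.0106). For the Tet1 upstream tile the change was from 39.8% to 13.8% (-26.0 ± 19.5 points, log2 ratio -2.0 ± 0.455, limma adjusted p = 0.0141). The tile inside Dnmt1, 8.39 kb from the start, went from 47.2% to 25.2% (-22.0 ± 13.6 points, limma adjusted p = 0.0263), and the one at 49.8 kb from 80.04% to 62.2% (-17.9 ± 11.9 points, limma adjusted p = 0.0343). Each was lower in 4 of 4 pairs.

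All 4 calls ended when every library was centred on its own median tile, which left 0.409% of all tiles called lower (205 of 50167). The median log2 ratio over all tiles differed by -1.45 with vitamin C. Relative to that shift only 2 of the 12 methylated window tiles were lower and 10 were higher, with no window tile called in either direction. The 2 lower ones were the Dnmt1 tile 6.16 kb upstream (limma adjusted p = 0.173) and the Tet1 upstream tile (0.345). Of the 14 window tiles under 20%, 13 were also higher after centring, although their median difference was -0.19 points. Centring thus raised tiles that hardly changed in points, and a higher centred value does not by itself mean a smaller loss. A quasi-binomial model on the reads also called none of the 4, with adjusted p from 0.0561 to 0.110, and called 0.251% of all tiles lower (126 of 50167).

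Single libraries carried some calls as well, in the windows and in the genome, where 5.3% to 28.2% of all tiles were called lower when each library was left out. The upstream Dnmt1 tile was called without any 1 of the 8 libraries, and the Tet1 tile was not called without the library with both agents on day 5 (-16.3 points, limma adjusted p = 0.0542). For the Dnmt1 tile at 8.39 kb the limma adjusted p was 0.0806 without untreated day 5, 0.0832 without L-proline day 5, 0.0867 without vitamin C day 5, 0.0527 without both on day 2 and 0.0893 without both on day 5. For the tile at 49.8 kb it was 0.120 without untreated day 5, 0.0843 and 0.0801 without L-proline on days 2 and 5, 0.109 without vitamin C day 5, and 0.0845 and 0.100 without both on days 2 and 5.

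The Tet2 tile with the largest vitamin C difference, 58.1 kb from the start, was not called: it averaged 73.1% without and 55.2% with vitamin C (-17.9 ± 12.6 points, limma adjusted p = 0.0584), and its adjusted p was 0.0244 without the vitamin C day 2 library. The low Dnmt3a tile at 64.8 kb had a limma adjusted p of 0.0160 but a difference of -7.02 ± 7.34 points, under the 10 points required. Also under 10 points, and named after their values were seen, were a Dnmt1 tile 31.9 kb after the start (-9.88 ± 7.37 points, limma adjusted p = 0.0346) and a Tet1 tile 20.3 kb downstream of the dense run's centre (-8.75 ± 8.97 points, limma adjusted p = 0.0489), each lower in 4 of 4 pairs. The Dnmt3b tile at the far end of its window differed by -7.66 ± 2.00 points (limma adjusted p = 0.318), with 4 of 4 pairs lower, and the Dnmt3l tile by -3.98 ± 3.89 points (0.186).

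Without any model, 13 of the 26 window tiles were lower with vitamin C in all 4 pairs, against 49.0% of all tiles, and in 5 of 26 the 2 groups did not overlap, against 26.2%. For L-proline 7 of 26 were higher in all 4 pairs, against 28.0% of all tiles. These shares lie close to those of the genome.

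No window tile was called for L-proline (background 0.0% in either direction), and limma called none among all 50167 tiles. At an unadjusted p under 0.05, 4 window tiles were higher with L-proline, against 15.2% of all tiles, and 1 was lower, against 0.767%. The largest L-proline differences were 17.4 ± 16.6 points in the Tet1 upstream tile (18.1% without and 35.5% with it, limma adjusted p = 0.253) and 17.0 ± 7.06 points in the Dnmt1 upstream tile (59.2% and 76.2%, adjusted p = 0.230). Both were higher in 4 of 4 pairs. Over the 12 methylated window tiles the median was 6.52 points, beside 5.42 points over all tiles of that class. The median log2 ratio over all tiles differed by 0.79 with L-proline, and relative to it 8 of these 12 tiles were lower and 4 higher. Of the 14 window tiles under 20%, 11 were lower and 3 higher relative to it.

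**Figure D4:**
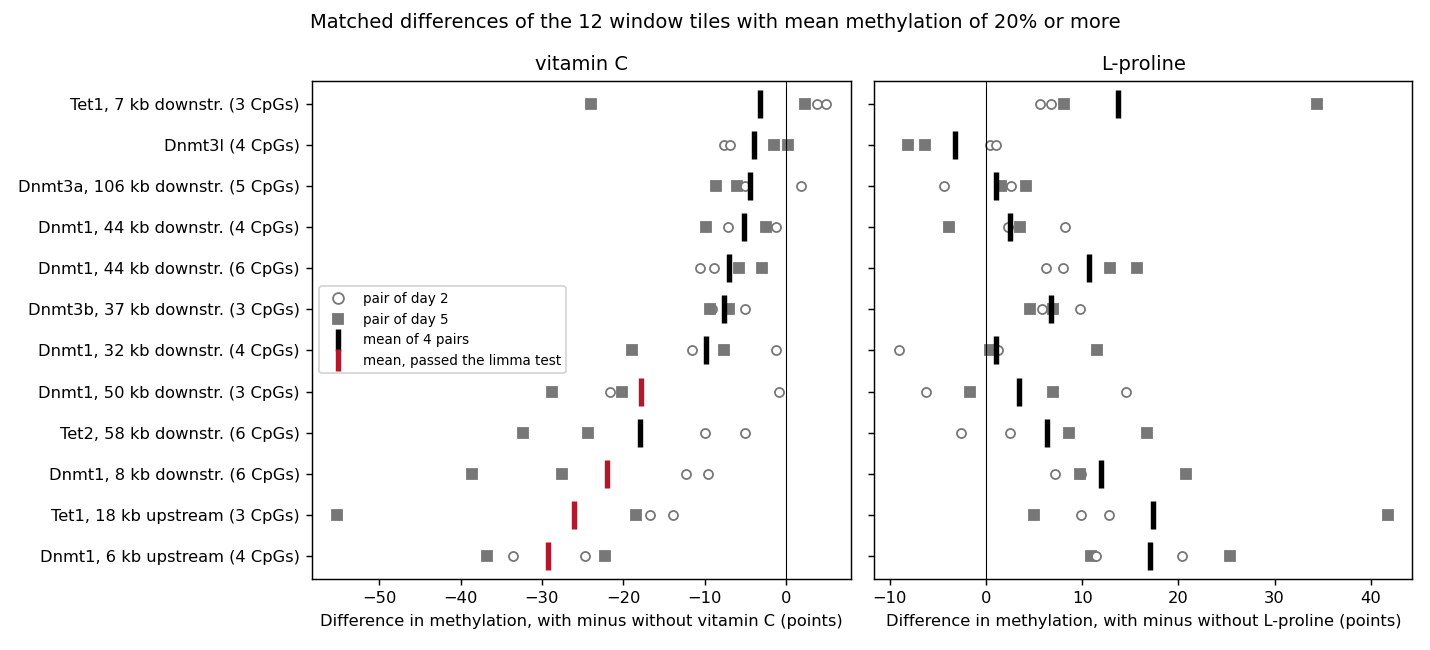
Matched differences in methylation (points) of the 12 window tiles with a mean of 20% or more, for vitamin C at left and L-proline at right, with a circle for each pair of day 2, a square for each pair of day 5 and a bar for the mean of 4 pairs. Tiles are named by gene and by the distance (kb) of their nearest CpG from the first placed start or the Tet1 dense run, and sorted by the vitamin C mean. Red bars mark the 4 tiles called for vitamin C, from -29.3 to -17.9 points, and no tile was called for L-proline.

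Day made no difference that limma called in any window tile or in any tile of the genome (0.0%), and neither did the term that asks whether the vitamin C difference changed between days (0.0%). At an unadjusted p under 0.05, day was higher on day 5 in 3 window tiles and lower in 1, against 6.55% and 0.977% of all tiles, and the vitamin C by day term in none, against 11.3% and 1.02%. In 3 of the 29 runs the level was higher on day 5 in all 4 pairs: the Dnmt3b run at the far end of its window by 4.79 ± 1.34 points, and the Tet1 runs 47.0 kb and 6.72 kb downstream by 19.9 ± 8.70 and 16.5 ± 14.5 points. Over all tiles the share higher in all 4 pairs was 11.2%.

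Single CpGs were compared between 2 libraries at a time with two-sided Fisher exact tests on reads over all 622768 CpGs, and calls needed 20 points or more and an adjusted p under 0.05. Such tests compare libraries, not conditions. Over 14 comparisons there were 37 calls at 24 different CpGs, 11 in the Dnmt1 window, 7 in Tet1, 3 in Dnmt3a, 3 in Tet2 and none in Dnmt3b or Dnmt3l. None of the 377 promoter and dense-run CpGs was called, and none could be. Their highest value in any library was 15.0%, under the 20 points required.

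On day 5, 11 window CpGs (2.33% of 472) were lower with vitamin C than untreated, against 2.95% of all CpGs, and 13 (2.75%) were lower with both than with L-proline alone, against 5.66%. On day 2 the same comparisons gave 0 CpGs (background 0.487%) and 1 CpG (0.608%). L-proline day 5 exceeded untreated day 5 at 4 CpGs (0.847%, background 0.715%), 3 in Tet1 and 1 in Dnmt1, and exceeded L-proline day 2 at 8 CpGs (1.69%, background 0.883%), 4 in Tet1, 2 in Tet2 and 2 in Dnmt1. The remaining comparisons called no window CpG.

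The 2 genes with most calls show what they look like in reads. At chr10:62366960 in the Tet1 upstream run, untreated day 5 had 29.3% of 41 reads methylated, L-proline day 5 had 86.2% of 29 reads, and both agents on day 5 had 8.0% of 25 reads. L-proline was higher than untreated by 56.9 points (Fisher exact, adjusted p = 0.00197), and both agents differed from L-proline alone by -78.2 points (adjusted p = 3.59e-06). At chr9:20748218 inside Dnmt1 the same libraries had 52.2% of 69 reads, 95.3% of 64 and 42.1% of 38, with differences of 43.1 points for L-proline (adjusted p = 4.54e-05) and -53.2 points for adding vitamin C to it (adjusted p = 1.40e-06). At chr3:133149160 in Tet2, L-proline went from 16.7% of 30 reads on day 2 to 77.2% of 57 on day 5 (adjusted p = 0.000130). In Dnmt3a, position 3917997 of chromosome 12 stood at 93.8% of 16 reads in untreated day 5 and 14.3% of 14 with vitamin C (adjusted p = 0.00236).

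Other genes of the pathway were checked at their promoters, placed in the same way: readers and maintenance factors, demethylation and repair enzymes, and regulators. Of 19 genes, 11 had a placed start with CpGs in all libraries, 386 CpGs in all, 1 (Smug1) was placed without such CpGs, 3 could not be placed and 4 had no sequence in the table. Of the 11, 10 were under 5% in every library, among them Tet3, the third Tet enzyme, at 0.199% to 2.02%, Tdg, the glycosylase that removes oxidised cytosines, at 0% to 1.04%, and Uhrf1, the factor that guides Dnmt1 to replicated DNA, at 0.0906% to 0.827%. Uhrf2 was the exception, at 1.64% to 8.41%. Of 21 tested tiles near these starts 1, near Uhrf1, was called lower with vitamin C by limma, and none was called for L-proline. The vitamin C background was 23.2% of all tiles but 6.66% of tiles with a mean under 20%.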

How the data were processed

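Methylation was measured by RRBS in 8 libraries, 1 for each treatment and day. The deposited files list CpGs with at least 10 reads, each with its coverage as a count of reads and its methylation as a fraction, on mm9 coordinates. Per the submitters' processing notes, CASAVA, BSMAP 2.88 and mm9 were used; trimming, duplicate removal, strand merging and the restriction enzyme are not given in the sources used here. Of the listed coverages, 99.3% to 99.6% per library were whole and the rest were rounded. Methylated reads were recovered as coverage times fraction, rounded. Over CpGs with coverage up to 300, the product was whole (within 0.0005 times the coverage) for 99.98% or more.

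The fit across tiles used limma 3.58.1 in R 4.3.3 on log2 ratios with a pseudocount of 1 on methylated and unmethylated reads, over 1 kb tiles with at least 3 CpGs covered by 10 reads in all 8 libraries, with 4 residual degrees of freedom (3 with the vitamin C by day term) and Benjamini-Hochberg adjustment over 50167 tiles. Fisher p-values came from a purpose-written function that was compared with scipy 1.17.1 on random counts. They were adjusted with scipy within each of 14 comparisons. Sign-flip tests used all 16 sign assignments of 4 pairs. The limma and Fisher scripts were tested on simulated data. With 1 library for each treatment and day, no p-value measures the spread between repeated cultures. The limma residual is the departure of the 8 libraries from the fitted terms. Sign-flip p-values rest on the 4 pairs, and Fisher p-values cover only the counting of reads in 2 libraries.

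Named tiles were every window tile called by a limma test and, for each gene, the tile with the largest absolute vitamin C and L-proline difference; runs were described by position and level, and those detailed were picked after their values were seen. The genes, the pathway list and the tests were chosen with earlier results of these data known. Alternatives were other coverage minimums, pseudocounts, tile sizes, CpG minimums, scales, centring, a quasi-binomial model and leaving out each library.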

Additional observations from a re-analysis of the deposited data

How the results depend on the processing

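Of 192 alternative values of the matched differences per gene, 190 kept their direction. L-proline at the whole Dnmt3b window was -0.22 points at a minimum of 30 reads (0.68 as reported for all CpGs), and at Dnmt3l 0.62 points over CpGs listed in both libraries of a pair, an alternative chosen after seeing the data (-3.06 in the common CpGs); the cause was not tested. The 4 window tiles called for vitamin C became 1 of 26 on the percentage point scale (13.2% of all tiles called lower, beside 23.2%), 0 with centred libraries (0.409%), 1 of 15 at 20 reads (11.7%), 9 of 46 with no minimum of CpGs (20.7%), 1 of 14 with at least 5 CpGs (14.9%) and 0 with the quasi-binomial model (0.251%), and 1 to 6 when each library was left out (5.3% to 28.2%). Under centring the log2 ratio for vitamin C was 0.13 in the Dnmt1 tile at 49.8 kb, 0.0385 in that at 8.39 kb, 1.00 in Dnmt3b, 0.70 in Dnmt3l and 0.22 in Tet2, and that for L-proline -0.39 in Dnmt3b and -0.27 in Tet2. The 37 single-CpG calls became 20 at 20 reads and 2 when each CpG was thinned to 20 reads, where fewer CpGs and reads were tested, and 34 at a difference of at least 30 points. No value was obtained for Dnmt3l at 20 or 30 reads or for Tet2 outside its promoter at 30 reads. No replicate block could be fitted, because the labels carry no replicate numbers and each treatment and day has 1 library; the matched pairs share the other agent and the day only. Promoter means lay near the share of lambda cytosines read as methylated.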
